A study of Glycine max with 20 samples.

Results

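The MtN21/UmamiT family of soybean was collected as every gene model whose closest Arabidopsis protein is described as nodulin MtN21, or that carries the EamA transporter domain (Pfam PF00892). Of 88647 gene models, 301 met the rule. One splice form was kept per gene, that with the highest mean RPKM (read count scaled to the length of the model and the mapped reads of the library) over the 20 libraries, which gave 197 genes of 56044. Both parts of the rule held for 125 genes, the description alone for 18 and the domain alone for 54. Since several transporter families share the domain, the annotation did not make all 197 genes amino acid exporters. UmamiT type is used here for the 149 genes with an MtN21 or WAT1 hit, of which 4 have as closest protein AT1G06890, a UDP-xylose transporter in Arabidopsis. The rest were sorted by words in the description of their closest protein, which need not give the true substrate. They were nucleotide-sugar transporters (12 genes), plastid phosphate translocators (11), purine permeases (10) or other EamA proteins (15) by that wording.

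MtN21 was first described as a gene of Medicago truncatula root nodules, and the related UmamiT proteins are membrane carriers, several of which let amino acids leave the cell in Arabidopsis. A developing embryo has no vascular link to the mother plant, so the amino acids that reach the seed in the phloem have to be released from seed coat cells before the embryo can take them up. The hilum is where the seed joins its stalk and where the vascular supply enters. In Arabidopsis, UmamiT24 and UmamiT25 act in the passage of amino acids to the seed, SIAR1 acts in that to the silique, and WAT1 carries auxin out of the vacuole and is needed for thick fibre walls.

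RNA was sequenced from seed coats of greenhouse-grown plants of UC7 (Clark 63, genotype ii R T Mi g, black hilum) and of UC413 (ii R t mi G), an isoline with a minute hilum made by repeated backcrossing to Clark 63. Since the isolines carry different alleles at T and G as well as at Mi, the 3 loci and other introgressed sequence cannot be told apart in any isoline difference. The extended hilum, which is the hilum with the seed coat next to it, was taken from seeds of 10 to 25 mg (EH10), 25 to 50 mg (EH25) and 50 to 100 mg (EH50) with 2 libraries for each isoline, and of 100 to 200 mg (EH100) with 1. Whole seed coats gave 1 library for each isoline at 3 of these weights (WS10, WS25 and WS50). The study calls the pairs of libraries independent replicates, and p-values measure only the spread between them.

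The libraries held 91768975 to 128803969 alignments, so that 3 alignments to a model of 1 kb correspond to 0.0233 to 0.0327 RPKM. Size factors computed here, by which each library's RPKM was divided to give scaled RPKM, ranged from 0.574 to 1.18 for UC7 libraries and from 1.15 to 1.24 for UC413 libraries, and the first UC7 EH10 library stood apart with the factor 0.574. The first UC7 EH25 library differed from its replicate by more than 2-fold in 17 of 110 family members, against 1 to 6 members in the other 5 pairs. Embryo markers (17 oleosin and cruciferin type genes) summed to 68.5 scaled RPKM in that library and to 29.7 in its replicate. In bulk samples such as these, fewer cells of a type and less RNA per cell cannot be told apart.

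Levels in the seed coat spread widely over the family. Of the 197 genes, 26 had a mean of at least 10 RPKM, 76 a mean from 1 to 10, and 83 a mean below 1. The remaining 12, all UmamiT type, had no alignment in any library. A test needed at least 1 RPKM in 2 libraries, which 106 members reached among the 12 libraries of EH10 to EH50, among them 68 of the 149 UmamiT type genes. The largest group by closest Arabidopsis protein, with 19 genes, was that of AT4G08290, and 2 of them had a mean of at least 1 RPKM. By contrast 12 of the 16 genes closest to AT3G28050 and 9 of the 15 closest to AT5G07050 did, as did 6 of the 8 closest to AT1G09380 (UmamiT25). Of the 8 genes closest to AT1G25270 (UmamiT24), only Glyma.08G182500 was expressed at that level. None of the members had as closest protein AT2G40900, AT2G39510, AT1G01070 or AT4G01430, which are further Arabidopsis UmamiT genes. By the order of the gene identifiers, 82 members stood in 26 runs with at most 5 other genes between neighbours, the longest run of 8 on chromosome 6.

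The most highly expressed member was Glyma.13G081000 (closest protein AT4G08300), with a mean of 166.7 RPKM over the 20 libraries. In UC7 its 2 libraries read 203 and 172.2 scaled RPKM (EH10), 182 and 227 (EH25), and 301 and 311 (EH50). The UC413 libraries read 105 and 102 (EH10), 145 and 116 (EH25), and 177.5 and 127 (EH50). Every UC413 library was therefore below every UC7 library of its stage, and the single EH100 libraries had the same order, with 342 in UC7 and 206 in UC413. The log2 difference (UC413 minus UC7) was -0.86 ± 0.23 (SE) for EH10, -0.64 ± 0.23 for EH25 and -1.02 ± 0.23 for EH50. It passed the test at EH50 (limma, adjusted p = 0.0305) but not at EH10 (0.0597) or EH25 (0.179). On the RPKM as deposited the 3 differences kept their sign at -0.05, -0.28 and -0.74, the libraries overlapped at EH10, and the difference at EH50 no longer passed (adjusted p = 0.0963).

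The next in level, Glyma.14G148300, has the same closest protein and ran at a near constant proportion to the first, which was 1.97 to 2.29 times as high in each of the 20 libraries. In UC7 it read 91.0 and 84.9 scaled RPKM at EH10 and 145 and 145 at EH50. In UC413 it read 47.9 and 45.4 at EH10 and 83.4 and 59.3 at EH50. The isolines did not overlap at either stage, and the log2 difference passed the test at EH10 (-0.91 ± 0.19, limma adjusted p = 0.0250) and at EH50 (-1.04 ± 0.19, 0.0166). At EH25 it was -0.69 ± 0.19 with an adjusted p of 0.0951. On the RPKM as deposited the values were -0.11 at EH10 and -0.75 at EH50, neither of them past the threshold. A read could be counted in up to 25 models, so similar genes such as this pair may share reads.

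**Figure D1:**
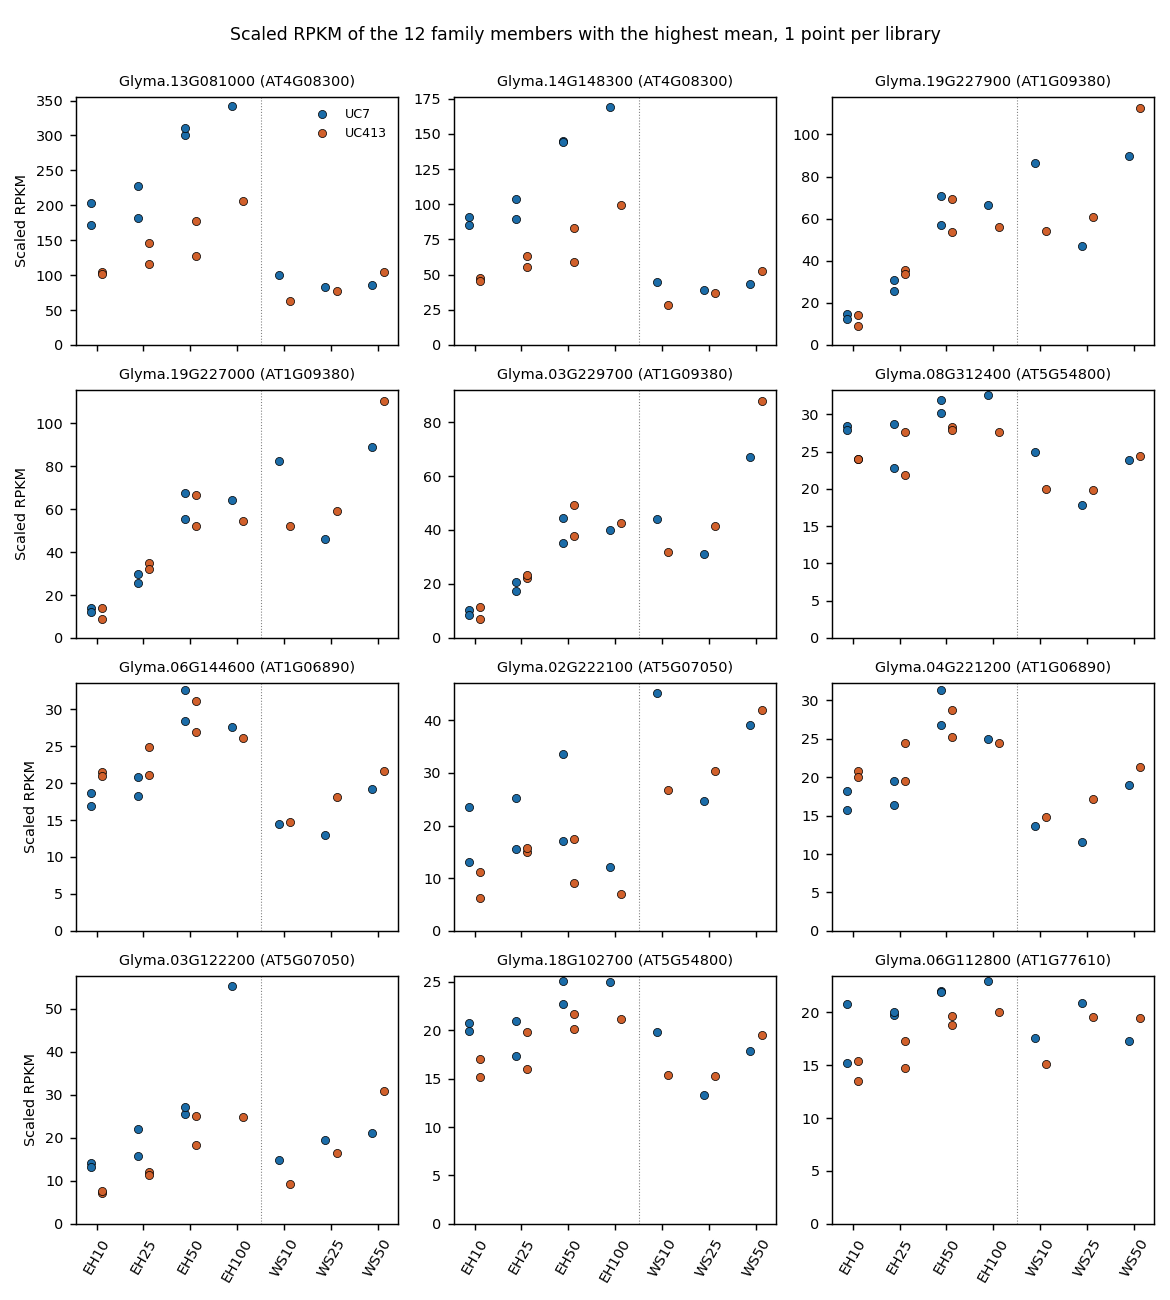
Scaled RPKM (vertical axes, from 0) of the 12 members with the highest mean, in extended hilum (EH) and whole seed coat (WS) libraries of UC7 (blue) and UC413 (orange), 1 point per library and titles giving the closest Arabidopsis protein. Glyma.13G081000 reached 342 in UC7 EH100 and stayed at 105 or less in all 6 whole seed coat libraries, whereas the 3 AT1G09380 hits rose from EH10 to EH50 and were as high in whole seed coats.

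Summed over the 149 UmamiT type genes, the level in the UC7 extended hilum was 692 and 587 scaled RPKM for EH10, 855 and 799 for EH25, 1105 and 1195 for EH50, and 1228 for EH100. In UC413 the sums were 488 and 460, 638 and 626, 866 and 834, and 895. On this scale UC413 was below UC7 at each stage, but on the RPKM as deposited the EH10 sums were 397 and 499 in UC7 and 589 and 570 in UC413, and those at EH25 overlapped. Both isolines gained with seed weight on either scale. The genes closest to AT4G08300 made up much of the gap, with 451 and 478 in UC7 EH50 and 262 and 188 in UC413 EH50. For the 122 UmamiT type genes outside the 3 groups drawn apart, the EH50 sums were 380 and 360 in UC7 and 365 and 331 in UC413. In whole seed coats the totals were 702, 644 and 750 in UC7 and 517, 625 and 916 in UC413, so that the isolines had no fixed order there.

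**Figure D2:**
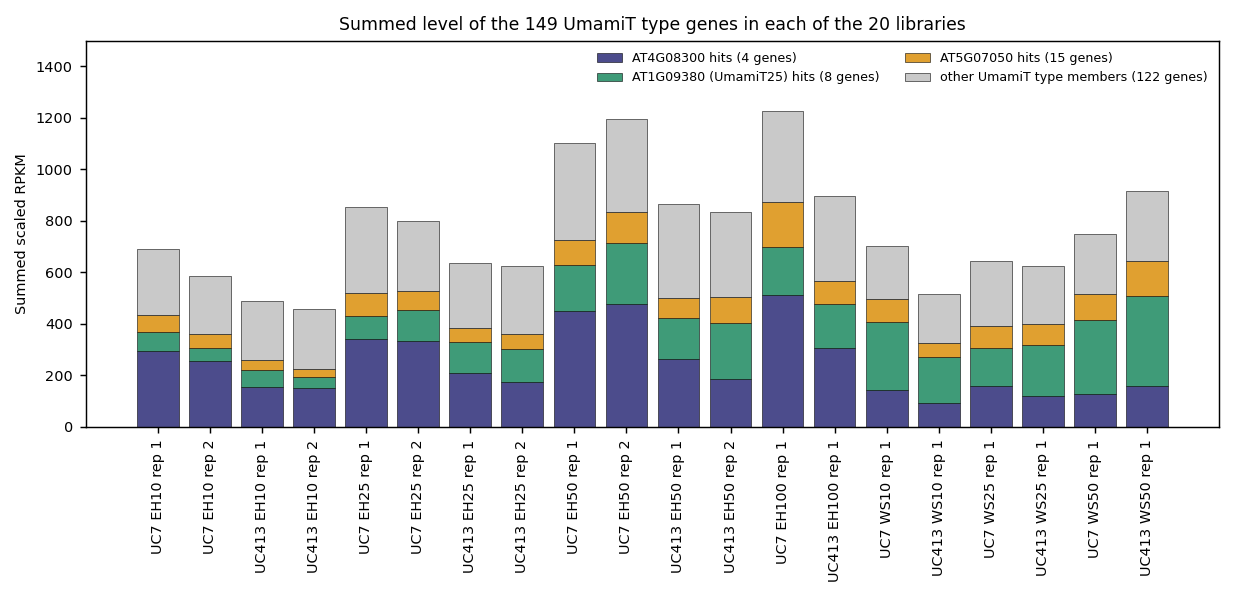
Summed scaled RPKM of the 149 UmamiT type genes in each library (bars, vertical axis from 0), split by closest Arabidopsis protein. Glyma.13G081000 alone accounted for 15.3% to 29.4% of the sum in extended hilum libraries and 11.4% to 14.2% in whole seed coats.

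The isolines were compared at each stage to ask which genes differ while the hilum forms, in 1 limma fit over the 12 libraries with adjusted p under 0.05 as the threshold. At EH10, 8 members were higher in UC7 and 1 in UC413 of 106 tested, where over all genes tested 3.41% and 3.42% were called in these directions. At EH25 a single member was higher in UC7 (1.14% of all genes) and 0 in UC413 (1.41%). At an unadjusted p under 0.05 there were 23 and 3 members, but these percentages do not apply there. All genes were not counted at the unadjusted threshold, here or in later comparisons. At EH50, 13 members were higher in UC7 (4.83% of all genes) and 2 in UC413 (3.45%). The median log2 difference of the members was -0.19, -0.20 and -0.20 at the 3 stages, beside -0.08, -0.07 and -0.08 for all genes tested. Of the 106 members, 32, 32 and 29 were above 0, where 41.6%, 41.5% and 41.0% of all genes tested were.

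These counts turned on the scaling between libraries. On the RPKM as deposited the median of all genes moved to 0.65 (EH10), 0.27 (EH25) and 0.18 (EH50), and the members' medians to 0.55, 0.16 and 0.07. Relative to all genes, the members were then lower by -0.10, -0.11 and -0.11, beside -0.12, -0.13 and -0.12 after scaling. Deposited values called 50 members toward UC413 and 0 toward UC7 at EH10. The same counts were 1 and 0 for EH25 and 5 and 2 for EH50. The share of all genes called on deposited values was not counted, here or in later comparisons. The EH10 count for UC7 fell from 8 to 0 when any of 3 EH10 libraries was left out (UC7 1 or 2, UC413 1) and to 1 without UC413 library 2, and it was 4 without either UC7 EH50 library. At EH25 it was 13 without UC7 library 2, 2 without either UC413 EH50 library and 0 without any of the other 9. At EH50 the 13 fell to 0 without UC7 library 1 or UC413 library 1, to 1 without UC7 library 2, to 4 without UC413 library 2 and to 8 without either UC413 EH10 library. The count of 1 toward UC413 at EH10 was 0 without UC7 EH10 library 2 or either UC413 EH10 library and 2 without either UC7 EH25 library. That of 2 at EH50 was 0 without any EH50 library, 1 without either UC413 EH10 library and 4 without either UC7 EH25 library. Replicate 1 at EH50 was made with a non-stranded kit in both isolines, and with the replicate block, which there is also a block for the kit, the EH50 count was 18.

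**Figure D3:**
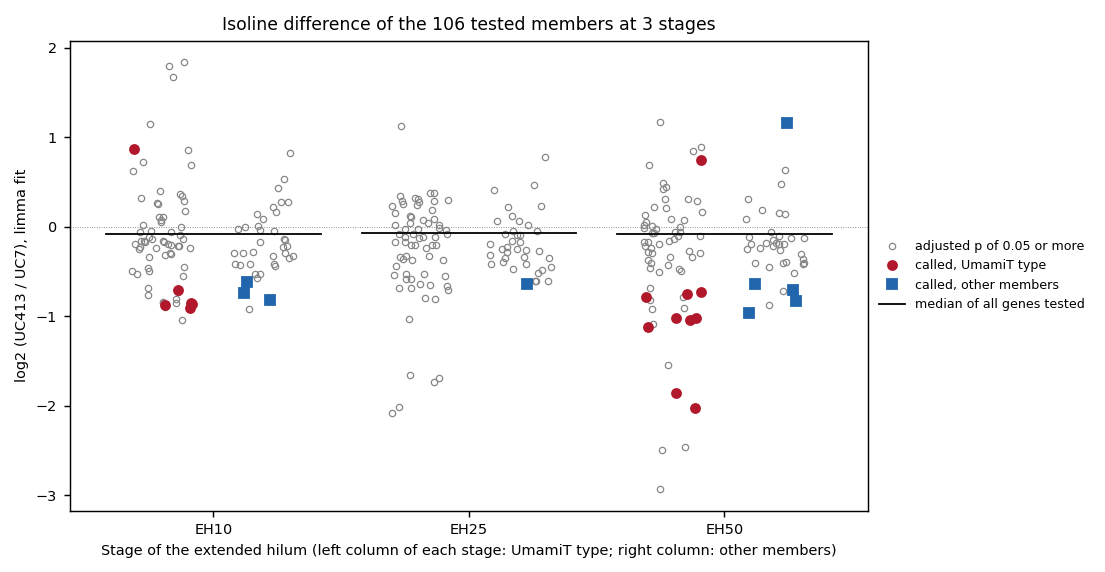
Fitted log2 difference (UC413 minus UC7, vertical axis) of the 106 tested members at EH10, EH25 and EH50, with called members filled and the median of all genes as a line. Called members lie mostly below 0, with 8 of 9 at EH10 and 13 of 15 at EH50. On the RPKM as deposited the calls at EH10 would be 50 above 0 and none below, and at EH50 5 above and 2 below. The median of all genes would then be 0.65 at EH10 and 0.18 at EH50.

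Called at EH10 were 4 genes closest to AT5G07050, an MtN21 protein of Arabidopsis. Glyma.03G122200 read 14.2 and 13.3 scaled RPKM in UC7 and 7.14 and 7.58 in UC413, Glyma.03G102300 5.19 and 5.27 against 2.72 and 3.53, and Glyma.17G209400 4.83 and 5.57 against 2.43 and 3.06. For Glyma.19G126400 the values were 5.70 and 4.33 against 2.93 and 2.40. No UC413 library reached a UC7 library for any of the 4 genes. Their log2 differences were between -0.88 (Glyma.03G122200, limma adjusted p = 0.0240) and -0.71 (Glyma.03G102300, 0.0219). On deposited RPKM none of the 4 passed, and Glyma.03G102300 turned to 0.05. At EH50 none of the 4 differences passed the test, and Glyma.19G126400 had the other order there, with 9.54 and 9.63 in UC7 and 10.1 and 10.1 in UC413. At EH100, with 1 library each, Glyma.03G122200 read 55.3 in UC7 and 24.8 in UC413, Glyma.03G102300 29.2 and 12.6, Glyma.17G209400 23.3 and 10.8, and Glyma.19G126400 16.0 and 9.37. Of the 9 tested genes closest to AT5G07050, these 4 were the ones called at EH10, beside 3.41% of all genes called toward UC7.

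Purine permeases of plants carry adenine-type bases and cytokinins. At EH10, 3 of the 7 tested members of this type were called toward UC7, beside 3.41% of all genes, and all 3 were closest to AT1G30840. Glyma.09G047500 read 13.2 and 12.6 scaled RPKM in UC7 against 7.58 and 6.83 in UC413 at EH10, and 13.0 and 13.8 against 6.49 and 10.2 at EH50. Its differences of -0.82 ± 0.18 and -0.71 ± 0.18 both passed the test (limma, adjusted p = 0.0302 and 0.0444). The neighbouring Glyma.09G047400 was also lower in UC413 at both stages, with -0.75 at EH10 (0.0323) and -0.64 at EH50 (0.0463). Glyma.15G154800 was the only member called at EH25, where it read 6.96 and 7.33 in UC7 against 4.33 and 4.67 in UC413 (-0.64 ± 0.14, limma adjusted p = 0.0482), and it was also called at EH10 (-0.62, 0.0318). On deposited RPKM, Glyma.09G047400 and Glyma.15G154800 turned to 0.0033 and 0.14 at EH10. None of the 7 was above 0 at any stage on the scaled values.

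The one member higher in UC413 at EH10 was Glyma.01G033800 (closest to AT5G40240, an MtN21 protein). It read 5.03 and 5.10 scaled RPKM in UC413 and 3.07 and 2.31 in UC7, a log2 difference of 0.87 ± 0.16 (limma, adjusted p = 0.0166). The isolines kept this order at EH25, with 4.79 and 5.62 against 3.89 and 4.21, and at EH50, with 9.29 and 7.80 against 7.60 and 6.17, though neither difference passed the test.

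At EH50 the largest called differences toward UC7 were in Glyma.08G182500, closest to UmamiT24, and in Glyma.13G091100, closest to AT4G30420. Glyma.08G182500 read 3.54 and 7.02 scaled RPKM in UC7 and 0.655 and 1.58 in UC413 (-2.03 ± 0.45, limma adjusted p = 0.0285). Glyma.13G091100 read 6.61 and 8.24 against 1.66 and 2.06 (-1.86 ± 0.43, 0.0324). Libraries of the isolines did not overlap for either gene. Both genes read higher at EH10 than at EH50. Glyma.08G182500 reached 14.2 and 16.1 in UC7 EH10 and 10.1 and 7.19 in UC413 EH10. The fall from EH10 to EH50 passed the test for both genes in UC413 and for neither in UC7.

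The WAT1 hits behaved alike. Glyma.04G027800 read 1.45 and 1.31 scaled RPKM in UC7 EH50 and 0.608 and 0.498 in UC413 EH50 (-1.02 ± 0.24, limma adjusted p = 0.0333). This call was lost with the replicate block (0.0524), with a pseudocount of 1 (0.0686) and without the filter (0.0565). Glyma.06G028000 read 1.88 and 1.28 against 0.753 and 0.431 (-1.12 ± 0.25, 0.0277). Both genes were near the filter of 1 RPKM, and the other 4 genes closest to WAT1 had means from 0.02 to 0.32 RPKM. Xylem markers (22 genes for secondary wall cellulose synthases and xylem proteases, 13 of them tested) had none called between the isolines at EH50, where their sums were 584 and 534 in UC7 and 608 and 624 in UC413. At an unadjusted p under 0.05, 4 of the 13 were toward UC7 and 1 toward UC413. The highest cellulose synthase, Glyma.06G225500, had an EH50 mean of 93.9 in UC7 and 127 in UC413. For the highest protease, Glyma.04G014800, the means were 35.2 and 22.6. The part of xylem in the WAT1 differences was not tested.

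Of the other named members toward UC7 at EH50, Glyma.18G031100 and Glyma.05G054700 are of the nucleotide-sugar transporter type, carriers that bring sugar donors into the Golgi. Glyma.18G031100 read 14.2 and 12.3 scaled RPKM in UC7 and 6.57 and 6.73 in UC413 (-0.97 ± 0.19, limma adjusted p = 0.0219). Glyma.05G054700 read 2.85 and 2.80 against 1.64 and 1.33 (-0.83 ± 0.18, 0.0254). Both members called toward UC413 were of 2 types. Glyma.02G032500 (closest to AT5G40210, an MtN21 protein) read 16.9 and 15.7 in UC413 and 9.16 and 10.1 in UC7 (0.74 ± 0.15, 0.0225). Glyma.14G025800, closest to the plastid glucose 6-phosphate translocator AT5G54800, read 7.54 and 10.0 against 3.28 and 4.29 (1.16 ± 0.27, 0.0342) and read higher in both UC413 libraries than in both UC7 libraries at EH10 and EH25 as well. With the stranded libraries alone, which leave 1 library per isoline at EH50, the counts at EH50 were 0 and 0. The last 3 of the 13 members toward UC7 that are not given above with their values were among the 14 tested genes closest to AT3G28050, the MtN21 group with the most tested members. On deposited RPKM the named members kept their sign at EH50, and the calls that held were those of Glyma.08G182500, Glyma.13G091100, Glyma.02G032500 and Glyma.14G025800.

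Across the 3 stages together, 19 of 106 members had both UC413 libraries below both UC7 libraries every time, or 17.9% beside 14.1% of all genes, and 5 had them above, or 4.72% beside 10.8%. On the RPKM as deposited these counts of members were 0 and 22. The shares of all genes were not counted on that scale, where the median of all genes was 0.65, 0.27 and 0.18 at the 3 stages. The change of the isoline difference from EH10 to EH50 was itself tested, and limma called 0 members and 0 genes in either direction. At an unadjusted p under 0.05, for which all genes were not counted, 6 members were more positive and 8 more negative. At EH100, 26 of 109 members were at least 1.5-fold higher in UC7 and 8 in UC413 (15.3% and 6.64% of all genes, with 1 library an isoline and no test). On deposited RPKM, where all genes were not counted, these were 18 and 8. In whole seed coats 3 members were at least 1.5-fold higher in UC7 at WS10, WS25 and WS50 (0.534% of all genes) and 0 in UC413 (0.773%). These were Glyma.08G182500, which read 22.5, 4.47 and 2.80 scaled RPKM in UC7 and 14.1, 2.11 and 1.15 in UC413, and 2 genes closest to AT3G28050, Glyma.06G197900 and Glyma.02G174200. The last pair is named because it fell into this small count, and on deposited RPKM it alone remained. Glyma.02G174200 rested on 18 to 105 alignments per whole seed coat library, and Glyma.06G197900 on 32 to 155. In the extended hilum the UC413 libraries of Glyma.02G174200 were both below the UC7 libraries at EH10, overlapped them at EH25 and were both above them at EH50.

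Sums of marker genes of other cell types also differed between the isolines. No marker of these lists was at 0 in all libraries. Embryo markers summed to 10.4 and 8.26 scaled RPKM in UC7 and 8.46 and 5.79 in UC413 at EH10, 68.5 and 29.7 against 22.9 and 11.6 at EH25, and 78.9 and 59.0 against 46.4 and 44.3 at EH50. The isolines overlapped at EH10 only, and at EH100 the sums were 415 and 142. Of 11 tested embryo markers, 1 was called at EH25, toward UC7, and 0 at the other stages, though 8 had an unadjusted p under 0.05 toward UC7 at EH25. Proanthocyanidin cell markers (7 genes closest to BAN, TT12 and AHA10) summed to 488 and 470 in UC7 and 261 and 274 in UC413 at EH10, overlapped at EH25, and summed to 139 and 156 against 26.1 and 30.4 at EH50. The EH10 sums were carried by Glyma.08G062000 (BAN) and Glyma.14G032400 (TT12), which are named here after their values were seen. At EH50 their means were 125.8 and 7.38 in UC7 and 8.74 and 1.35 in UC413. The AHA10 hit Glyma.03G262600 had 6.69 in UC7 and 7.65 in UC413 there. Of the 6 tested, 1 was called toward UC413 and 0 toward UC7 at EH10, and 1 and 2 at EH50, with 4 of 6 above 0 at both stages. Phloem markers (38 genes) summed to 54.7 to 104 in the UC7 extended hilum and 42.3 to 66.0 in that of UC413. At EH10, 2 of the 19 tested phloem markers were called toward UC413 and 0 toward UC7, and at EH50 0 and 4. Xylem markers summed to 97.6 and 119 in UC7 EH10 and to 199 and 188 in UC413 EH10, where 4 of 13 tested were called toward UC413. On deposited RPKM the phloem and embryo sums at EH10 turned toward UC413, the proanthocyanidin sums at EH10, the phloem sums at EH25 and the embryo sums at EH25 and EH50 overlapped, and the xylem sums at EH10 kept their order. The part of these cell types in the isoline differences of the family was not tested.

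Development was followed from EH10 to EH50 within each isoline. In UC7, 39 of 106 members were higher at EH50 and 3 were higher at EH10, where 6.54% and 5.94% of all genes were called in these directions. In UC413 the counts were 27 and 5, beside 7.89% and 8.15% of all genes. The members' median log2 change was 0.45 in UC7 and 0.29 in UC413, with 86 and 71 of 106 above 0. Among all genes the median was 0.01 in each, and 51.4% and 51.2% were above 0. On RPKM as deposited the member medians were 0.88 and 0.22, and those of all genes 0.42 and -0.05. Of the UmamiT type, 31 of 68 tested genes rose in UC7 and 22 in UC413, and 20 of these were shared, which is 64.5% of the UC7 list and 90.9% of the UC413 list. Over all members 25 rose and 2 fell in both isolines, where 4.71% and 4.61% of all genes did. The UC7 count of 39 was 14 without UC7 EH10 library 2, 13 without UC7 EH50 library 1 and 14 with stranded libraries alone. Embryo markers rose over the same stages in 8 of 11 tested genes in UC7 and 10 of 11 in UC413, with median log2 changes of 2.31 and 2.41, and proanthocyanidin markers had 1 of 6 up and 3 down in each isoline. The part of these cell types in the family's changes was not tested.

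**Figure D4:**
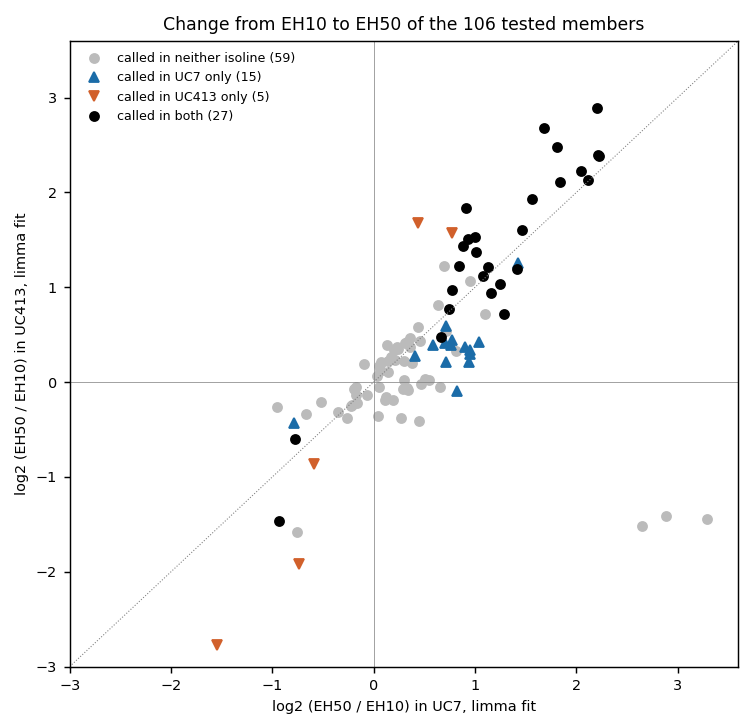
Fitted log2 change from EH10 to EH50 in UC7 (horizontal axis) and UC413 (vertical axis) for the 106 tested members, 1 point per gene, with the line of equal change dotted. Of these, 27 were called in both isolines, 15 in UC7 only, 5 in UC413 only and 59 in neither, and 25 of the 27 lie above 0 on both axes.

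Among the steepest rises were those of genes closest to UmamiT25. Glyma.19G227900 read 14.6 and 12.3 scaled RPKM in UC7 and 14.1 and 9.24 in UC413 at EH10. At EH25 it read 25.8 and 30.9 against 35.6 and 33.7, and at EH50 57.1 and 70.7 against 53.5 and 69.3. Its libraries overlapped between the isolines at EH10 and EH50, whereas no EH10 library came near an EH50 library. The log2 change was 2.22 ± 0.22 in UC7 and 2.39 ± 0.22 in UC413 (limma, adjusted p = 4.3e-04 and 2.5e-04). Glyma.19G227000 followed it so closely, at a ratio of 1.01 to 1.06 over all 20 libraries, that reads of the 2 genes may not have been told apart. Glyma.03G229700 gave 10.4 and 8.43 in UC7 and 11.6 and 6.97 in UC413 at EH10, and 35.04 and 44.3 against 37.7 and 49.3 at EH50. Its change was 2.05 ± 0.24 in UC7 and 2.23 ± 0.24 in UC413 (8.6e-04 and 4.6e-04).

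The lesser UmamiT25 hit Glyma.02G222000 also rose, from 0.813 and 1.10 to 2.95 and 5.27 scaled RPKM in UC7 and from 0.766 and 0.497 to 3.63 and 5.82 in UC413 (limma, adjusted p = 0.0048 and 8.2e-04). By contrast Glyma.10G145000 gave 23.2 and 9.89 in UC7 EH10 and 17.8 and 32.3 in UC7 EH50, with replicates further apart than the stages, and it passed no test. The last expressed hit, Glyma.20G094100, passed none within the extended hilum either. The other 2 of the 8 genes, Glyma.06G138300 and Glyma.14G189200, had means of 0.43 and 0.17 RPKM.

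Outside that group, Glyma.02G032500 rose from 2.11 and 1.71 to 9.16 and 10.1 scaled RPKM in UC7 and from 2.12 and 1.85 to 16.9 and 15.7 in UC413, which is 2.20 ± 0.15 and 2.89 ± 0.15 on the log2 scale (limma, adjusted p = 2.1e-04 and 5.8e-05). It went on to 20.8 and 23.8 at EH100. Glyma.03G076000, of the nucleotide-sugar transporter type, rose from 0.344 and 0.289 to 1.57 and 1.55 in UC7 and from 0.151 and 0.134 to 2.23 and 2.29 in UC413. Glyma.13G132500, closest to AT2G37460, rose from 3.68 and 2.07 to 9.87 and 16.6 in UC7 (2.11 ± 0.42, 0.0105) and from 7.61 and 5.48 to 31.4 and 27.3 in UC413 (2.14 ± 0.42, 0.0081). All 4 genes closest to AT5G07050 that were called between the isolines at EH10 rose in each isoline, by 0.91 to 1.01 in UC7 and 1.38 to 1.83 in UC413. Of the 9 tested genes with that hit, 6 rose in each, beside 6.54% of all genes in UC7 and 7.89% in UC413.

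Falling genes were few. Glyma.05G059900, closest to the MtN21 protein AT5G47470, went from 18.9 and 21.8 to 12.4 and 11.1 scaled RPKM in UC7 (-0.78 ± 0.15, limma adjusted p = 0.0088) and from 16.0 and 16.6 to 11.03 and 10.3 in UC413 (-0.60 ± 0.15, 0.0230). Glyma.17G142400, with the same hit, fell in UC7 (-0.79 ± 0.15, 0.0081). The WAT1 hit Glyma.04G027800 fell in each isoline (-0.93 ± 0.24, 0.0332, and -1.46 ± 0.24, 0.0035), and Glyma.06G028000 fell in UC413 (-0.86 ± 0.25, 0.0427). Xylem marker sums went the other way, from between 97.6 and 199 at EH10 to between 534 and 624 at EH50 over the isolines, and 12 of 13 tested xylem markers rose in UC7 and in UC413. In UC413, Glyma.08G182500 (-2.77 ± 0.45, 0.0034) and Glyma.13G091100 (-1.92 ± 0.43, 0.0156) fell most. The UC7 count of 3 was 2, 1, 2 and 0 without UC7 EH10 library 1, EH10 library 2, EH50 library 1 and EH50 library 2, 5 without either UC7 EH25 library, and 0 on deposited values. The UC413 count of 5 was 2 without either UC413 EH10 library or UC413 EH50 library 2, and 3 without UC413 EH50 library 1.

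Some UmamiT type genes followed single libraries rather than groups. Glyma.03G059100, the only gene closest to SIAR1, read 20.1 scaled RPKM in UC7 EH25 library 1, 10.5 in UC7 WS25 and 5.56 in UC7 EH50 library 2, and 0.0331 to 1.33 in the other 17 libraries. Glyma.06G112200 read 41.5, 23.2 and 14.3 in those 3 libraries and at most 3.28 elsewhere, and Glyma.04G250600 27.2, 14.4 and 8.16 and at most 2.10. The pair, named after their values were seen, are the remaining members closest to AT4G08300. All 3 genes thus had their highest levels in the same UC7 libraries, while the replicate of each of those extended hilum libraries was low. These 3 genes are the points at the lower right of the plot of change in both isolines, and they passed no test. Glyma.13G091100 was also highest in UC7 EH25 library 1 (28.6) and UC7 WS25 (28.3). Further low members, also named after their values were seen, followed the same 3 libraries. Glyma.13G077800 had 357, 159 and 80 alignments there and at most 5 elsewhere, and Glyma.06G112100 121, 46 and 85 and at most 7. Embryo markers summed to 68.5 in UC7 EH25 library 1, 67.1 in UC7 WS25 and 59.0 in UC7 EH50 library 2, but to 78.9 in UC7 EH50 library 1 and 415 in UC7 EH100, where these genes were low. Their part was not tested.

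Whole seed coats were set against the extended hilum within isoline and stage, over 18 libraries and 109 tested members. More members were higher in the extended hilum (37, beside 15.4% of all genes) than in whole seed coats (9, beside 13.0%), and their median log2 difference (WS minus EH) was -0.12 where that of all genes was 0.00. On the RPKM as deposited this split turned to 17 and 24 and the members' median to 0.05, while the median of all genes moved to 0.18. Without the WS50 and EH50 libraries, part of which came from the non-stranded kit, the counts were 20 and 7. Xylem markers were mostly higher in the extended hilum (12 of 13 tested, 1 in whole seed coats), as were phloem markers (13 of 19, with 2 in whole seed coats). Their part in the region difference was not tested.

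Glyma.13G081000 was the clearest case by level, at 99.6, 82.8 and 85.6 scaled RPKM in UC7 whole seed coats and 62.7, 77.9 and 105 in those of UC413. Each value was below both extended hilum libraries of its isoline and stage, and the log2 difference was -0.997 ± 0.15 (limma, adjusted p = 3.1e-04). Glyma.14G148300 differed by -0.96 ± 0.14 (2.1e-04). Among the largest differences toward the extended hilum were both WAT1 hits, Glyma.04G027800 (-1.26 ± 0.17, 1.6e-04) and Glyma.06G028000 (-1.14 ± 0.14, 8.4e-05), and Glyma.01G033800 (-1.16 ± 0.10, 4.4e-06). Glyma.01G033800 read 1.41, 1.92 and 1.98 in UC7 whole seed coats and 2.18, 1.93 and 3.91 in UC413, each value below both extended hilum libraries of its isoline and stage. All 4 tested genes closest to AT5G40240 and 7 of the 14 closest to AT3G28050 were called toward the extended hilum, beside 15.4% of all genes. Glyma.13G122000 (closest to AT2G37460, -1.17) and Glyma.15G227700 (AT5G07050, -1.15) complete the named set, and these 7 genes were lower in the whole seed coat in 6 of 6 pairs of isoline and stage.

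Toward whole seed coats went the UmamiT25 hits, with 5 of 6 tested genes called, beside 13.0% of all genes. Glyma.19G227900 read 86.7, 47.1 and 89.9 scaled RPKM in UC7 whole seed coats and 54.3, 60.6 and 113 in those of UC413, a log2 difference of 1.31 ± 0.24 (limma, adjusted p = 0.0012). Glyma.03G229700 read 44.1, 31.1 and 67.0 against 31.7, 41.4 and 88.0 (1.23 ± 0.18, 2.7e-04). The gap was widest at the earliest stage, where Glyma.19G227900 had 86.7 in UC7 WS10 and 14.6 and 12.3 in UC7 EH10. It was therefore already high in the young whole seed coat while it was still low around the hilum. Glyma.02G222100, closest to AT5G07050, read 45.2, 24.7 and 39.1 in UC7 whole seed coats and 26.7, 30.3 and 41.8 in UC413 (1.12 ± 0.22, 0.0023), and it was higher than its extended hilum mean in 6 of 6 pairs. Glyma.20G094100 was higher in 5 of 6 (0.80 ± 0.26, 0.0348), and its call did not hold without the WS50 and EH50 libraries.

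**Figure D5:**
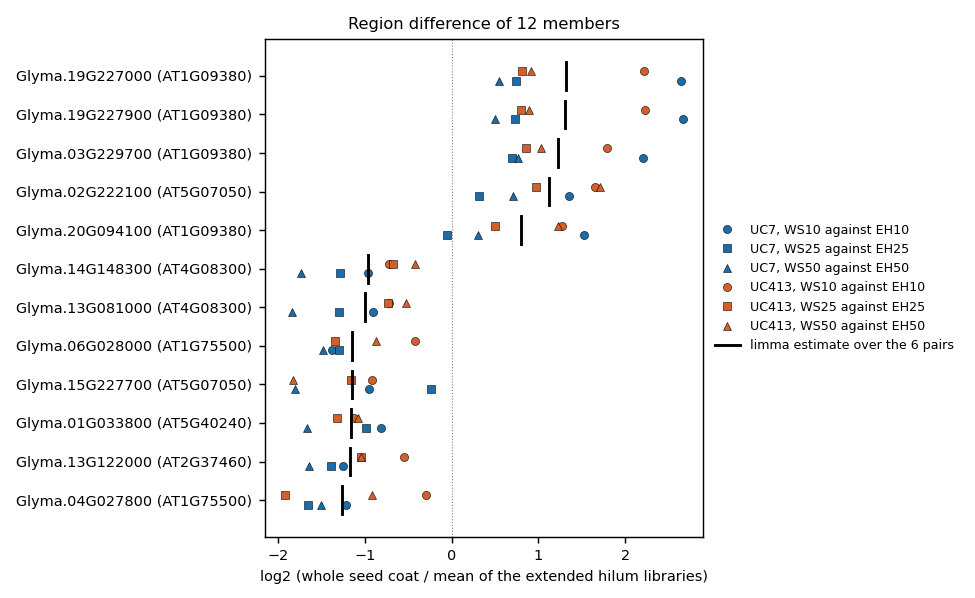
Log2 difference between the whole seed coat library and the mean of the extended hilum libraries (horizontal axis), within isoline (colour) and stage (marker), for the 10 named members and the 2 highest members, with the limma estimate as a bar. The 7 members toward the extended hilum lie below 0 in all 6 pairs, and of the other 5 only Glyma.20G094100 has a pair below 0. On deposited RPKM the limma estimates of all 12 keep their sign, but not every single pair does.

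Carriers and enzymes of related roles were counted in the same fits. Over all genes tested, 3.41% were called toward UC7 and 3.42% toward UC413 at EH10, and 4.83% and 3.45% at EH50. The list of amino acid permeases and LHT type carriers was chosen by a protein domain alone, not by shown function. It had 7 of 70 tested genes higher in UC7 and 1 in UC413 at EH10, and 6 and 0 at EH50. NPF/PTR carriers of nitrate and peptides had 59 tested, with 3 called toward UC7 and 0 toward UC413 at EH10, and 0 and 2 at EH50. Of the 5 tested glutamine dumpers, small proteins that raise amino acid export when overexpressed in Arabidopsis, 1 was called toward UC7 at EH10 and 1 at EH50. Of 10 asparagine synthetases, 2 were higher in UC7 at EH50, and of 28 SWEET sugar exporters 6 were, with 2 in UC413. With each library left out in turn, the counts toward UC7 were 1 to 8 for the permeases at both stages, 0 to 7 for NPF/PTR carriers at EH10, 0 to 1 for the dumpers, and 0 to 5 for asparagine synthetases and 0 to 7 for SWEET exporters at EH50. The counts toward UC413 at EH50 were 0 to 4 for NPF/PTR carriers and 0 to 3 for SWEET exporters. None of the 2 tested ureide permeases was called in any comparison.

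From EH10 to EH50, SWEET exporters and NPF/PTR carriers also had more genes up than down, while amino acid permeases in UC7 did not. Over all genes tested, 6.54% were called up and 5.94% down in UC7, and 7.89% and 8.15% in UC413. SWEET exporters had 10 genes up and 2 down in UC7 and 11 up and 2 down in UC413, of 28 tested. NPF/PTR carriers had 10 up and 4 down in UC7 and 18 up and 5 down in UC413, of 59. Amino acid permeases and LHT type carriers had 7 up and 8 down in UC7 and 12 up and 7 down in UC413, of 70. With each library left out in turn, the counts up in UC7 and in UC413 were 3 to 11 and 6 to 12 for SWEET exporters, 2 to 14 and 4 to 21 for NPF/PTR carriers, and 1 to 12 and 5 to 13 for the permeases. The median log2 change of SWEET exporters was 0.61 in UC7 and 0.62 in UC413, beside 0.45 and 0.29 for the family. No difference between the family and these lists was tested.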

How the data were processed

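The 20 libraries came from extended hilum tissue and whole seed coats of UC7 and UC413. The authors aligned the reads with Bowtie to soybean gene models, allowing up to 3 mismatches and 25 alignments per read, and deposited 1 table of RPKM per model. Every value divided by the step of its library and model length gave a whole number of alignments within 0.01 (100% of values). The kit of the EH50 replicate 1, EH100 and WS50 libraries was non-stranded.

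RPKM was divided by median-of-ratios size factors over 74045 models, with the 12 libraries of EH10 to EH50 as reference. The region comparison used factors over its 18 libraries. Tests were made with limma 3.58.1 in R 4.3.3 on log2(scaled RPKM + 0.25), with a trend in the prior variance and Benjamini-Hochberg adjustment over all models with at least 1 RPKM in 2 libraries. Since log2 differences include the pseudocount of 0.25, they understate those of low genes. The steps were tested on simulated data. Fits were repeated with deposited RPKM, upper quartile scaling, a pseudocount of 1, no filter, limma-voom (on alignments recovered from the steps), a replicate block, single stages, stranded libraries, another splice form and each library left out.

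Members named were the 12 with the highest mean, up to 8 called each way per isoline comparison whose same-numbered pairs both went that way, the 5 largest called each way in development and region, and all hits to WAT1, SIAR1, UmamiT24, UmamiT25 and 4 further UmamiT genes. The members and lists were chosen with earlier results of these data known. Gene names follow the closest Arabidopsis protein in the deposited table. No sequence was used here.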

Additional observations from a re-analysis of the deposited data

How the results depend on the processing

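Directions between isolines rested on the scaling, since the deposited RPKM of the 2 isolines differ by a shift common to most genes. The cause was not tested for any value below. With that RPKM the counts higher in UC413 and in UC7 were 50 and 0 (EH10), 1 and 0 (EH25) and 5 and 2 (EH50), the UC7 fall from EH10 to EH50 had 0 members, and the region counts were 24 in whole seed coats and 17 in the extended hilum. Glyma.03G102300, Glyma.15G154800 and Glyma.09G047400 turned to 0.048, 0.14 and 0.0033 at EH10. Without the filter the counts were 2 for UC7 at EH25, 5 for UC413 and 8 for UC7 at EH50, and 15 for whole seed coats. With each stage fitted alone they were 5 for UC413 at EH10, 0 for UC7 at EH25 and 5 for UC413 at EH50. Stranded libraries gave 0 for UC7 at EH25, 0 and 0 at EH50, 14 up and 0 down in UC7, and 3 down in UC413. Upper quartile scaling and limma-voom gave 0 for UC7 at EH25, splice form 1 gave 1 for UC413 at EH50, and region without WS50 and EH50 gave 20 for the extended hilum.

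The replicate block gave 2 for UC413 and 13 for UC7 at EH10, 3 for UC7 at EH25 and 18 for UC7 at EH50. It lost the EH50 call of Glyma.04G027800 (adjusted p = 0.0524) and changed no development count beyond 1.5 times. The labels give same-numbered libraries no shared origin, and 2 pairs a comparison were too few to settle a pairing from the data. The correlation of same-numbered deviations was 0.19, 0.23 and 0.47 at EH10, EH25 and EH50 over 57568 models.

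With each library left out in turn, which leaves a group of 1 assumed to vary like the others, the counts for UC413 were 0 to 2 at EH10, 0 at EH25 and 0 to 4 at EH50, and those for UC7 were 0 to 11, 0 to 13 and 0 to 19. Those up and down were 13 to 44 and 0 to 5 in UC7 and 19 to 28 and 2 to 7 in UC413, and those of the region 6 to 11 and 28 to 39. Of the named calls, those kept each time were 0 of 9 at EH10, 0 of 1 at EH25, 0 of 12 at EH50, 8 of 21 in UC7 development, 13 of 18 in UC413 development and 16 of 19 in region. The change of the isoline difference from EH10 to EH50 stayed at 0 calls.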
